A study of Sus scrofa with 2 samples.

Results

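C1QA, C1QB, C1QC, C4BPA and CD74, 5 genes of the complement system and of antigen presentation, were followed in 2 cryosections of pig psoas major. They were chosen by gene symbol and were 5 of the 31780 genes in the count matrices. CD74 has no symbol there and was found by its Ensembl identifier (ENSSSCG00000033262) through a table of gene names. The labels give 2 female Landrace pigs as the source of the muscle and describe it as oxidative and slow, but they do not say which pig each section came from, so the sections may not stand for separate animals. There was no treatment and no control animal. Both sections lay on 1 Visium slide, an array of barcoded spots that bind polyadenylated RNA and on which each captured molecule is counted once through a unique molecular identifier (UMI). A spot can hold parts of several fibres and the vessels and connective tissue between them, so fewer cells of a type and less RNA per cell cannot be told apart. Sets of spots were therefore compared within sections, and values are given for section 1 and then section 2.

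C1q is the recognition molecule of the classical complement pathway. It is assembled from the chains encoded by C1QA, C1QB and C1QC, binds antibody complexes and dying cells, and is made mostly by tissue macrophages and dendritic cells. C4BPA encodes the alpha chain of C4b-binding protein, which holds back the classical and lectin pathways and in humans is known mainly as a plasma protein made by the liver. CD74, the invariant chain, accompanies class II molecules of the major histocompatibility complex (MHC) to the compartment where they take up peptides, and is also a receptor at the cell surface.

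In the RefSeq annotation of Sscrofa11.1 the C1q genes lie side by side on the forward strand of chromosome 6, as C1QA (80586259 to 80589213), C1QC (80592591 to 80597464) and C1QB (80601680 to 80606076), within 19.8 kb. CD74 lies on the reverse strand of chromosome 2 (151402210 to 151409924). For C4BPA, 2 RefSeq genes on chromosome 9 carry the symbol (67726159 to 67774369, and 67815544 to 67827509). The second of them also has the synonym APOR. Which of them the counted gene (ENSSSCG00000015662) matches was not determined, so values given as C4BPA may belong to either. The 250 bases before the annotated starts of the C1q genes and CD74 are shown because the C1q chains shared spots at higher observed over expected ratios with each other than with CD74. That difference is partly set by CD74 being found in many more spots, which limits its ratio. Capitals mark matches on either strand to GAGGAA (a core of sites of the myeloid factor PU.1), CCAAT (the CCAAT box) or TATAAA (the TATA box).
C1QA: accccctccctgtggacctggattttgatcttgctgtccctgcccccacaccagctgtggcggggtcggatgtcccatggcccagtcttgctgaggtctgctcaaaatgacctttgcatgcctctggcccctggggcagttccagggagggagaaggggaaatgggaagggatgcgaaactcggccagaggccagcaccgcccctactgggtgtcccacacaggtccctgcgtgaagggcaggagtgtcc
C1QC: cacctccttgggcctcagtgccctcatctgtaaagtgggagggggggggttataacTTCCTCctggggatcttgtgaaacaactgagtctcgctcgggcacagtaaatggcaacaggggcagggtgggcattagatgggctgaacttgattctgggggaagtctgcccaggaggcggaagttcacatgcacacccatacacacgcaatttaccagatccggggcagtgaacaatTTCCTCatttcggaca
C1QB: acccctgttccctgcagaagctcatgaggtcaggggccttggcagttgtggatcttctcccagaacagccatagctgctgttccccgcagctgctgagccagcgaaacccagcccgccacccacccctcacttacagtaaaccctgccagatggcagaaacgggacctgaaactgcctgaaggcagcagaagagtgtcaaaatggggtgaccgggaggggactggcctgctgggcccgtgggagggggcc
CD74: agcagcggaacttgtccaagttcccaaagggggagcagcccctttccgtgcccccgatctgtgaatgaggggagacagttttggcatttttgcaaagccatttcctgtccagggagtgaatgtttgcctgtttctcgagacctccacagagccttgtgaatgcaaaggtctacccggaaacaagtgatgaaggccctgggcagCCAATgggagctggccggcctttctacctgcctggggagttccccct
The windows are chr6:80586009-80586258, chr6:80592341-80592590 and chr6:80601430-80601679 on the forward strand for C1QA, C1QC and C1QB, and chr2:151409925-151410174 on the reverse strand for CD74. GAGGAA lay 2 times before C1QC, on the opposite strand, and CCAAT 1 time before CD74, 47 to 43 bases before the start. No match was found before C1QA or C1QB. Among 19556 protein-coding genes, 22% of such windows held GAGGAA, 31.9% CCAAT and 9.77% TATAAA, so the matches are common ones.

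Of the deposited spots, 2429 of 2487 and 2878 of 2939 were kept, with medians of 929 and 1350.5 UMIs. Of their barcodes 2005 were kept in both sections, since a barcode marks a place on the array. Genes of slow and fast contraction held 513 and 671 of every 10000 UMIs in section 1, and 461 and 769 in section 2. The 18 macrophage markers summed to 3.43 and 3.25 per 10000, with LYZ and MARCO at 0. SELENOP held 664 of their 1236 UMIs in section 1 and 914 of 1746 in section 2, so sums of this list mostly follow that gene. Hepatocyte markers summed to 0.256 and 0.22, and 5 of the 8 found were at 0 in both sections. APOA1 held 89 of their 92 UMIs in section 1 and 114 of 118 in section 2. The labels state that pig RNA was added to the libraries as carrier, and its part in the counts was not tested. Spots of a section share a pig, so tests were run with edgeR on UMIs summed per section and class of spots. With so few sums, edgeR took the spread of a gene mainly from a trend over all genes. Its prior degrees of freedom were infinite, or 13.2 for C4BPA-positive spots, against 1 or 4 residual ones. The p-values thus rest mainly on that shared spread, not on how well the 2 sections agreed for a gene. All intervals are 95% intervals of counting error only.

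The C1q chains were rare and similar in number. C1QA had 135 UMIs in 94 spots of section 1 and 195 in 140 of section 2. C1QB had 172 UMIs in 126 spots and 198 in 140, and C1QC had 126 in 89 and 149 in 109. Together the chains (C1q below) were found in 9.39% (8.26 to 10.6) and 10.6% (9.46 to 11.7) of spots, at 1.2 (1.09 to 1.32) and 1.01 (0.926 to 1.1) UMIs per 10000 UMIs. The sections thus overlapped in both measures. Most C1q spots held a single molecule, 136 of 228 and 206 of 304.

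C4BPA was found in 11% (9.81 to 12.3) of spots of section 1 and 12.6% (11.4 to 13.9) of section 2, with 562 and 743 UMIs. C4BPB, the gene of the beta chain, had 0 UMIs in both sections, which allows up to 3 in each. CD74 was found in 59.3% (57.3 to 61.3) and 65.4% (63.7 to 67.2) of spots, with 4015 and 5491 UMIs. These shares follow depth. In the 10% of spots with the fewest UMIs CD74 was found in 11.9% and 12.8%, and in the deepest 10% in 95.1% and 98.6%. For C1q the shallowest 10% gave 1.23% and 0.694% and the deepest 21.4% and 18.4%.

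To compare spots at 1 depth, the 1623 and 2251 spots with at least 500 UMIs were thinned to 500 UMIs each. C1q was then found in 5.24% (4.2 to 6.44) of section 1 and 5.06% (4.2 to 6.05) of section 2. C4BPA was found in 5.67% (4.59 to 6.91) and 5.64% (4.72 to 6.68), and CD74 in 42.8% (40.3 to 45.2) and 39.1% (37.1 to 41.2). At matched depth the sections overlapped for all 3.

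The C1q chains shared spots more often than the product of their separate shares gives. At 500 UMIs, C1QA and C1QB shared 5 spots of section 1 against 0.556 expected, and 12 of section 2 against 1.19. Over the 3 pairs of chains the observed count was 7.34 to 10.7 times the expected in section 1 and 6.18 to 10.1 times in section 2. In full-depth spots, all 3 chains were present in 16 and 18 spots, out of 42 and 43 that held at least 3 C1q UMIs.

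C4BPA also shared spots with C1q more often than expected. At 500 UMIs, C1q and C4BPA shared 23 spots of section 1 against 4.82 expected, a ratio of 4.77 (3.03 to 7.16). In section 2 they shared 37 against 6.43, a ratio of 5.75 (4.05 to 7.93). Each chain taken alone gave 5.39 to 6.72 and 6.03 to 8.0, so the overlap was not that of 1 chain. These lay below the ratios of the chain pairs in section 1 (7.34 to 10.7). In section 2 they overlapped those of the chain pairs (6.18 to 10.1), and the difference was not tested. In full-depth spots the common odds ratio over 10 classes of depth was 5.74 and 4.33.

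The share of spots with C4BPA rose with the number of C1q UMIs in the spot. It was 4.49% (3.51 to 5.64) in spots of section 1 with 0 C1q UMIs, 18.2% (9.76 to 29.6) with 1 and 57.9% (33.5 to 79.7) with 2 or more (19 spots). In section 2 it was 4.21% (3.4 to 5.15), 25% (16.4 to 35.4) and 57.7% (36.9 to 76.6) (26 spots). The 3 intervals were apart in both sections. For CD74 the shares were 42.1% (39.6 to 44.6), 53% (40.3 to 65.4) and 57.9% (33.5 to 79.7) in section 1, and 38.6% (36.5 to 40.7), 47.7% (37 to 58.6) and 53.8% (33.4 to 73.4) in section 2, and the last interval included the first share in both. The spot of section 1 with the most C1q UMIs (31) also held the most C4BPA UMIs (30), and that of section 2 held 17 C1q and 14 C4BPA UMIs.

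**Figure D1:**
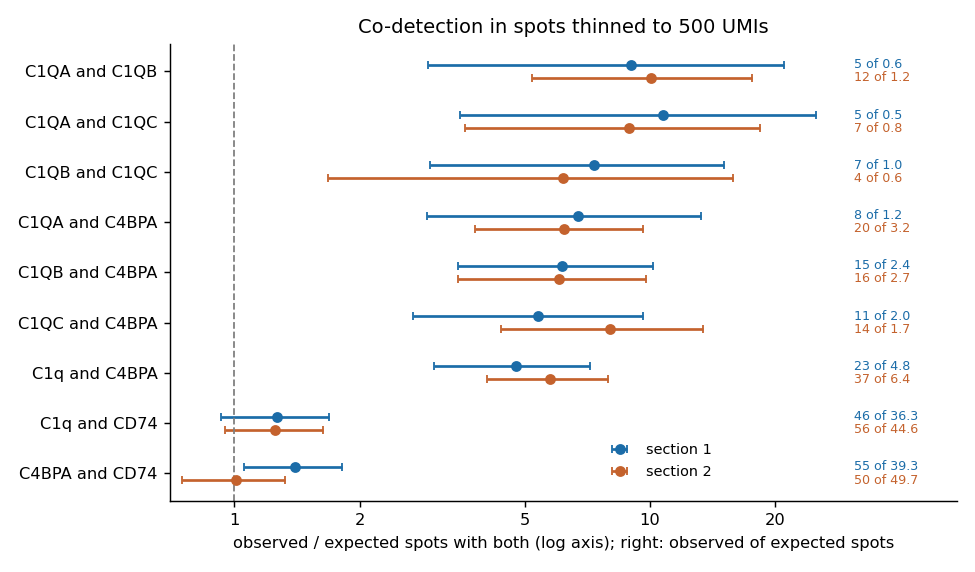
Observed over expected number of spots with both genes of a pair (log axis), in spots thinned to 500 UMIs. Points are sections and bars 95% intervals of the count. C1q with C4BPA lies at 4.77 and 5.75, and C1q with CD74 at 1.27 and 1.26. Ratios with CD74, found in many more spots, have a lower upper limit.

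**Figure D2:**
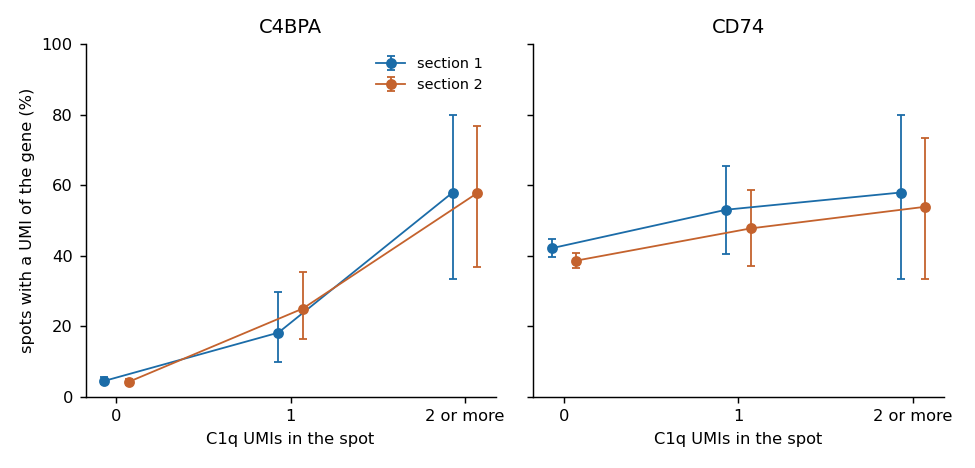
Share of spots thinned to 500 UMIs (percent) that hold C4BPA or CD74, by the number of C1q UMIs in the spot. Points are sections and bars exact 95% intervals. C4BPA goes up to 57.9% and 57.7% at 2 or more C1q UMIs, and CD74 to 57.9% and 53.8%.

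CD74 gave lower ratios with either gene. Its share of thinned spots (42.8% and 39.1%) limits how high its ratio can be, and the rarer C1q and C4BPA have a higher limit. The lower ratios of CD74 are thus partly set by how often it was found. C1q with CD74 gave 1.27 (0.927 to 1.69) in section 1 and 1.26 (0.948 to 1.63) in section 2, and both intervals included 1. In full-depth spots the common odds ratio of C1q with CD74 over the classes of depth was 1.86 and 1.9, against 5.74 and 4.33 for C1q with C4BPA. In MYH2/MYH4-dominant spots (described with the fibre types) C1q with CD74 gave 1.56 (1.03 to 2.27) and 1.49 (1.08 to 2.0), both above 1. In MYH7-dominant spots it gave 0.569 (0.245 to 1.12) and 0.938 (0.405 to 1.85), both with 1 inside the interval. Mixed spots, between these classes, gave 2.25 (1.08 to 4.13) and 0.516 (0.106 to 1.51), on opposite sides of 1. C4BPA with CD74 gave 1.4 (1.05 to 1.82) and 1.01 (0.747 to 1.33), with an interval above 1 in section 1 and not in section 2. The overlap of C1q and C4BPA was present outside collagen-rich spots, at 4.95 (3.02 to 7.64) and 6.32 (4.29 to 8.97). It was also present in MYH7-dominant spots, at 3.81 (1.24 to 8.89) and 8.59 (3.45 to 17.7), and in MYH2/MYH4-dominant spots, at 4.83 (2.57 to 8.25) and 4.68 (3.0 to 6.96).

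C1q-positive spots were then set against depth-matched spots without C1q, 228 pairs in section 1 and 304 in section 2. C4BPA had 329 against 41 UMIs in section 1 and 400 against 62 in section 2, and was 6.74-fold higher (log2 2.75 ± 0.13, edgeR adjusted p = 1.47e-88). Both sections moved alike, and 1.99% of 4275 genes passed as higher. Over the alternatives run, C4BPA ranged between 2.62 and 2.81 on the log2 scale with a largest adjusted p of 7.23e-05. CD74 had 1383 against 1037 CPM in section 1 and 1256 against 1069.8 CPM in section 2 (CPM, levels after normalization), 1.24-fold higher (log2 0.31 ± 0.06, 2.63e-06). That CD74 call was lost with DESeq2 (log2 0.32, adjusted p = 0.261), with no filter on low counts (log2 0.29, adjusted p = 0.116) and without collagen-rich spots (log2 0.24, adjusted p = 0.154).

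Of the 18 macrophage markers 9 had enough UMIs to be tested, and 8 of these passed as higher in C1q-positive spots (list median log2 2.20, against -0.00 for all genes). A gene with few UMIs could enter the test through its positive spots alone, which favours genes that are higher there. The same holds for the other lists and the other comparisons of positive spots. Over all genes 85 passed as higher in C1q-positive spots, against 13 with no filter and 14 without collagen-rich spots. With DESeq2, which gave 960 genes an adjusted p, 5 passed as higher. The 8 macrophage calls can thus not all hold with DESeq2, and which of the list calls do is not given here. CSF1R, the receptor of a macrophage growth factor, had 45 against 8 UMIs in section 1 and 57 against 13 in section 2 (4.6-fold, log2 2.20 ± 0.33, edgeR adjusted p = 3.10e-09). CD163, a scavenger receptor for haemoglobin, had 15 against 3 UMIs in section 1 (ratio 4.75, counting interval 1.34 to 25.6) and 34 against 5 UMIs in section 2 (ratio 6.5, counting interval 2.53 to 21.3). CD14, a receptor for bacterial lipopolysaccharide, had 19 against 3 UMIs in section 1 (ratio 6.01, counting interval 1.77 to 31.7) and 21 against 3 UMIs in section 2 (ratio 6.7, counting interval 2.0 to 35.1). All of these were higher in both sections. CD209, a lectin of macrophages and dendritic cells, had 23 against 1 UMIs in section 1 (ratio 21.8, counting interval 3.54 to 899) and 20 against 2 UMIs in section 2 (ratio 9.57, counting interval 2.32 to 84.4), and the wide intervals come from so few matched molecules. FOLR1, a folate receptor, had 157 against 21 UMIs in section 1 and 198 against 34 in section 2 (6.14-fold, log2 2.62 ± 0.19, 4.39e-40). The summed macrophage list stood at 7.39 against 2.82 UMIs per 10000 in section 1 and 6.62 against 2.55 in section 2.

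The other genes with the largest changes were F13A1, a clotting factor subunit, STAB1, a scavenger receptor, COL18A1, a basement membrane collagen, and LGALS3, a galectin. F13A1 had 12 against 1 UMIs in section 1 (ratio 11.4, counting interval 1.69 to 487) and 23 against 4 UMIs in section 2 (ratio 5.5, counting interval 1.88 to 21.9). STAB1 had 28 against 2 UMIs in section 1 (ratio 13.3, counting interval 3.35 to 115) and 48 against 17 UMIs in section 2 (ratio 2.7, counting interval 1.53 to 5.01). COL18A1 had 12 against 4 UMIs in section 1 (ratio 2.85, counting interval 0.863 to 12.1) and 34 against 5 UMIs in section 2 (ratio 6.5, counting interval 2.53 to 21.3), and LGALS3 10 against 3 UMIs in section 1 (ratio 3.16, counting interval 0.815 to 17.9) and 19 against 4 UMIs in section 2 (ratio 4.54, counting interval 1.51 to 18.4). For COL18A1 and LGALS3 the interval of section 1 included 1.

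Other complement genes were partly higher in C1q-positive spots: 2 of 3 of the activation genes tested, 1 of 2 of the regulators and 0 of 3 of the receptors. CFD, a protease of the alternative pathway, had 230 against 141 UMIs in section 1 and 310 against 171 in section 2 (1.65-fold, log2 0.72 ± 0.11, edgeR adjusted p = 8.16e-09). C4A, a substrate of the classical pathway, had 20 against 6 UMIs in section 1 and 26 against 7 in section 2 (log2 1.73 ± 0.43, 0.00307), and SERPING1, the inhibitor of the C1 proteases, had 69 against 43 UMIs in section 1 and 131 against 63 in section 2 (1.79-fold, 6.53e-04). C3, the central component, did not pass (log2 0.81 ± 0.42, 0.462). Of MHC class II genes, SLA-DQB1, a class II chain, passed (97 against 43 UMIs in section 1 and 120 against 73 in section 2, 1.79-fold, 2.42e-04). SLA-DMA (log2 0.91 ± 0.48, 0.458) and SLA-DMB (log2 0.66 ± 0.41, 0.592) did not. CTSS, a protease that cuts the invariant chain, was listed with the class II genes and also counted among the macrophage markers. It passed, with 12 against 1 UMIs in section 1 (ratio 11.4, counting interval 1.69 to 487) and 14 against 2 UMIs in section 2 (ratio 6.7, counting interval 1.54 to 60.7). B2M, the light chain of MHC class I, was 1.18-fold higher (0.00117).

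Genes of connective tissue and of slow muscle also passed. Of fibroblast and matrix genes 11 of 21 passed as higher (list median log2 0.63), among them GSN (1.54-fold), MGP (1.59-fold), DCN (1.33-fold) and FN1 (2.3-fold), and of endothelial genes 1 of 9. Of slow contractile genes 8 of 8 passed as lower, among them MYL2 (0.859-fold) and TNNI1 (0.87-fold), and 1.73% of all genes did. Of fast contractile genes 0 of 8 passed as lower and 0 of 8 as higher (list median log2 -0.00). C1q-positive spots were collagen-rich in 11.8% against 6.14% of matched spots in section 1 and in 13.5% against 6.58% in section 2. They were MYH7-dominant in 43.9% against 53.1% and in 37.5% against 44.7%. Without collagen-rich spots 31 genes passed in place of 159, and the part of the fibre classes in these folds was not tested.

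C4BPA-positive spots were compared with their own depth-matched spots (268 and 362 pairs). Many of them are spots of the C1q comparison, so the results are not independent of it. C1QA had 82 against 9 UMIs in section 1 and 108 against 18 in section 2 (6.8-fold, log2 2.77 ± 0.25, edgeR adjusted p = 2.14e-05). C1QB had 99 against 11 UMIs in section 1 and 115 against 20 in section 2 (6.67-fold, log2 2.74 ± 0.24, 1.49e-05), and C1QC had 75 against 9 UMIs in section 1 and 92 against 15 in section 2 (6.71-fold, log2 2.75 ± 0.26, 3.11e-05). The 3 folds differed by less than their errors, while 0.815% of 4660 genes passed as higher and 0.343% as lower. Over the alternatives run they ranged between 2.52 and 2.86 on the log2 scale, with a largest adjusted p of 0.00183. CD74 had 1296 against 1119 CPM in section 1 and 1140.0 against 1023 CPM in section 2 and did not pass (log2 0.18 ± 0.06, 0.206).

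Of the 18 macrophage markers 9 were again tested, and 4 of these passed as higher in C4BPA-positive spots (list median log2 1.80). CSF1R had 54 against 8 UMIs in section 1 and 59 against 10 in section 2 (log2 2.59 ± 0.31, edgeR adjusted p = 3.39e-04), and TYROBP, a signalling adaptor of myeloid cells, had 66 against 13 UMIs in section 1 and 50 against 19 in section 2 (log2 1.80 ± 0.29, 0.00426). CD163 had 13 against 3 UMIs in section 1 (ratio 4.17, counting interval 1.14 to 22.8) and 40 against 9 UMIs in section 2 (ratio 4.35, counting interval 2.08 to 10.2), and SELENOP, a selenium carrier, was 1.5-fold higher. The list summed to 7.07 against 2.44 UMIs per 10000 in section 1 and 5.7 against 2.8 in section 2. FOLR1 had 162 against 28 UMIs in section 1 and 192 against 29 in section 2 (log2 2.59 ± 0.17), and CCL14, a chemokine, had 64 against 16 UMIs in section 1 and 102 against 16 in section 2 (log2 2.32 ± 0.26). CD209 had 26 against 1 UMIs in section 1 (ratio 25, counting interval 4.11 to 1025) and 24 against 2 UMIs in section 2 (ratio 11.7, counting interval 2.91 to 102). IFI30, a reductase that opens disulphide bonds of antigens, had 25 against 3 UMIs in section 1 (ratio 8.01, counting interval 2.44 to 41.4) and 21 against 3 UMIs in section 2 (ratio 6.85, counting interval 2.04 to 35.8).

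COLGALT1, an enzyme that adds sugars to collagen, had 14 against 2 UMIs in section 1 (ratio 6.73, counting interval 1.55 to 61) and 23 against 5 UMIs in section 2 (ratio 4.5, counting interval 1.67 to 15.2). ADIPOQ, an adipocyte hormone and 1 of 4 adipocyte genes tested to pass, had 43 against 4 UMIs in section 1 and 31 against 14 in section 2. Of fibroblast and matrix genes 7 of 21 passed, among them GSN (1.72-fold), DCN (1.64-fold), MGP (1.94-fold) and LUM (2.2-fold), and the list stood at 37.9 against 20.9 UMIs per 10000 in section 1 and 30.6 against 19.4 in section 2. Hepatocyte markers, whose UMIs were nearly all of APOA1, stood at 0.457 against 0.409 UMIs per 10000 in section 1 and 0.177 against 0.27 in section 2. C4BPA-positive spots were collagen-rich in 14.2% against 4.85% and 11% against 5.8% of matched spots. Without collagen-rich spots 55 genes passed in place of 54.

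**Figure D3:**
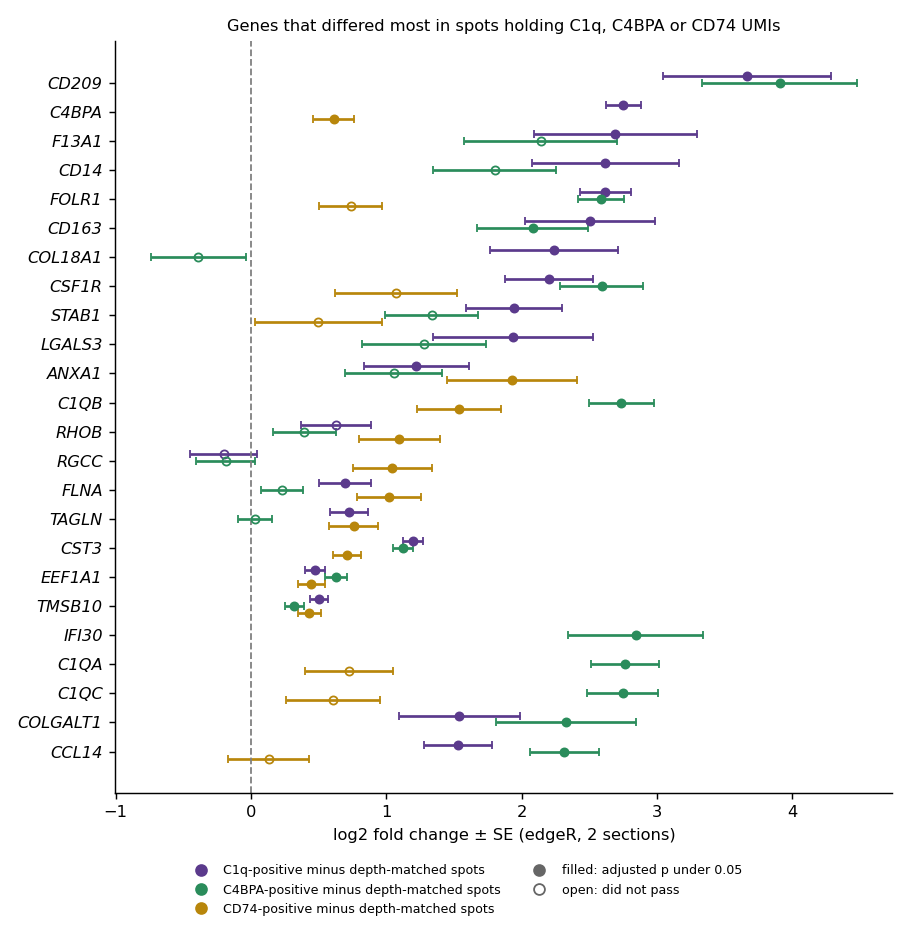
Log2 fold change ± SE (edgeR, sums of 2 sections) of genes in C1q-positive, C4BPA-positive and CD74-positive spots minus depth-matched spots. Filled points passed at an adjusted p under 0.05. Genes that set a comparison, and genes too low to be tested in it, have no point there. FOLR1 lies at 2.62 in the C1q and 2.59 in the C4BPA comparison, and at 0.74 in that of CD74.

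For CD74 the matching covered 558 of 1441 positive spots of section 1 and 650 of 1883 of section 2, which were shallow (medians 676 against 624 UMIs and 814 against 747). C1QB had 41 against 15 UMIs in section 1 and 44 against 11 in section 2 (2.9-fold, log2 1.54 ± 0.31, edgeR adjusted p = 2.83e-04). C4BPA had 119 against 72 UMIs in section 1 and 152 against 86 in section 2 (1.53-fold, log2 0.61 ± 0.15, 0.00775). C1QA (log2 0.72 ± 0.33, 0.455) and C1QC (log2 0.60 ± 0.35, 0.651) did not pass, and 0.504% of 3570 genes passed as higher and 0.42% as lower. Both calls were lost with DESeq2, without collagen-rich spots (C1QB log2 1.48, adjusted p = 0.0863, and C4BPA log2 0.62, adjusted p = 0.16) and without the section as a block (C1QB log2 1.54, adjusted p = 0.297, and C4BPA log2 0.61, adjusted p = 0.664). Against all spots without CD74, C4BPA turned to log2 -0.10.

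Around CD74, 1 MHC class I and 1 class II gene could be tested, and the others were absent from the matrices or too low. B2M of class I passed (493 against 329 UMIs in section 1 and 542 against 409 in section 2, 1.25-fold, log2 0.32, edgeR adjusted p = 0.00585). SLA-DQB1 of class II did not (log2 0.45 ± 0.25, 0.634). Its fold was the larger, but it had 316 and 441 UMIs in all kept spots against 3627 and 5047 of B2M. The 2 calls therefore do not set the classes apart. Of macrophage markers 0 of 5 passed. ANXA1, an annexin, had 17 against 2 UMIs in section 1 (ratio 7.65, counting interval 1.82 to 68.3) and 26 against 8 UMIs in section 2 (ratio 2.88, counting interval 1.27 to 7.35). CST3, an inhibitor of cysteine proteases, had 281 against 163 UMIs in section 1 and 360 against 186 in section 2 (1.64-fold, 1.18e-08). Of fast contractile genes 7 of 8 passed as lower, among them TPM1 (0.888-fold) and MYL1 (0.903-fold). Over all genes, DESeq2 gave 0 higher and 4 lower, so the calls of B2M, ANXA1 and CST3 were lost with it. Without collagen-rich spots 1 gene passed as higher and 0 as lower, so the fast contractile calls were lost there. Without the section as a block 0 genes passed.

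Collagen-rich spots were to be the 10% with the highest share of COL1A1, COL1A2 and COL3A1, the chains of collagens I and III, among spots with at least 3 such UMIs. Fewer spots than that reached the minimum, so the class holds every spot with at least 3 of these UMIs and favours deep spots. They numbered 102 (4.2%) and 144 (5.0%), and were deeper (median 2397 against 873 and 3273 against 1242 UMIs). C1q stood at 3.43 (2.76 to 4.21), against 1.03 (0.922 to 1.14) UMIs per 10000 in other spots of section 1, and at 2.34 (1.93 to 2.82), against 0.88 (0.799 to 0.967) in section 2. C4BPA stood at 4.46 (3.69 to 5.34), against 1.33 (1.21 to 1.46), and at 2.59 (2.16 to 3.1), against 1.27 (1.17 to 1.37). CD74 stood at 14.9 (13.4 to 16.4), against 10.9 (10.5 to 11.2), and at 14 (13 to 15.2), against 9.85 (9.58 to 10.1). Each was higher in collagen-rich spots of both sections, with intervals that did not overlap. In section 1 a single MYH4-rich spot with 8 collagen UMIs held 31 of the 90 C1q UMIs and 30 of the 117 C4BPA UMIs of its collagen-rich spots. Without it C1q stood at 2.27 (1.73 to 2.93) and C4BPA at 3.35 (2.68 to 4.13) in collagen-rich spots of section 1.

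In edgeR, which normalizes for composition, C1QA (2.91-fold, log2 1.54 ± 0.24, adjusted p = 9.73e-09), C1QC (2.39-fold, log2 1.25 ± 0.27, 2.03e-04), C1QB (2.29-fold, log2 1.20 ± 0.23, 1.72e-05) and C4BPA (2.2-fold, log2 1.14 ± 0.14, 8.22e-15) were higher, where 5.08% of 6888 genes passed as higher and 3.02% as lower. CD74 did not pass (1.19-fold, log2 0.26 ± 0.10, 0.119), but did with other spots matched on depth (log2 0.37, adjusted p = 0.0153), within MYH2/MYH4-dominant spots (log2 0.43, adjusted p = 0.00296) and with matrix-rich spots (log2 0.53, adjusted p = 2.14e-13). With DESeq2, C1QC (log2 1.26, adjusted p = 0.132) and C1QB (log2 1.17, adjusted p = 0.0877) did not pass. Without the spots with the most C1q or C4BPA UMIs, C1QC did not (log2 0.72, adjusted p = 0.152).

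Collagen-rich spots held 20.8% and 20.5% of C1q UMIs, 20.8% and 16.6% of C4BPA UMIs and 9.71% and 12.1% of CD74 UMIs, against 7.29% and 8.83% of all UMIs. At 500 UMIs, C4BPA was found in 11.9% (7.43 to 17.8) of spots with a collagen UMI against 4.95% (3.89 to 6.19) of those without in section 1, and in 11.4% (7.53 to 16.4) against 5.02% (4.11 to 6.06) in section 2. C1q was found in 5.95% (2.89 to 10.7) against 5.15% (4.08 to 6.42), and in 9.13% (5.67 to 13.8) against 4.63% (3.75 to 5.63). CD74 was found in 43.5% (35.8 to 51.3) against 42.7% (40.1 to 45.3), and in 42% (35.4 to 48.8) against 38.8% (36.7 to 41). The intervals were apart for C4BPA in both sections and for C1q in section 2. They overlapped for C1q in section 1 and for CD74 in both, so that a difference was not detectable there at this depth. At 300 UMIs the intervals of C4BPA overlapped in both sections, with 4.35% (2.01 to 8.09) against 4.02% (3.26 to 4.9) in section 2, and so did those of C1q. At 1000 UMIs those of C4BPA were apart in section 1 and overlapped in section 2, where it was found in 13.4% (9.74 to 17.9) against 8.71% (7.28 to 10.3). The intervals of C1q at that depth overlapped in section 1. They were apart in section 2, where it was found in 11.4% (7.96 to 15.6) against 6.19% (4.98 to 7.58). Summed and tested in edgeR on the spots thinned to 500 UMIs, C4BPA passed (log2 1.32, adjusted p = 5.57e-06) and C1QA, C1QB, C1QC and CD74 did not.

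Within MYH2/MYH4-dominant spots (47 and 57 collagen-rich), C1q stood at 5.2 (3.87 to 6.84), against 1.48 (1.23 to 1.78) UMIs per 10000 in section 1, and at 4.73 (3.63 to 6.05), against 1.41 (1.23 to 1.61) in section 2. C4BPA stood at 7.45 (5.84 to 9.36), against 2.21 (1.89 to 2.56), and at 4.58 (3.5 to 5.88), against 1.72 (1.52 to 1.94). Within MYH7-dominant spots (33 and 60 collagen-rich), C1q stood at 1.77 (1.11 to 2.67), against 0.766 (0.65 to 0.897), and at 1.04 (0.683 to 1.51), against 0.58 (0.492 to 0.68). The intervals of these were apart. Without the spot of each section with the most C1q and the spot with the most C4BPA UMIs, C1q in collagen-rich MYH2/MYH4-dominant spots stood at 2.1 (1.28 to 3.24) in section 1, which overlapped other spots, and at 3.52 (2.58 to 4.7) in section 2, which did not. C4BPA there stood at 4.51 (3.26 to 6.07) and 3.6 (2.65 to 4.79), apart from other spots in both. In edgeR within MYH2/MYH4-dominant spots C1QB (log2 0.78, adjusted p = 0.237, against log2 1.17, adjusted p = 0.0175 with these spots) and C1QC (log2 0.23, adjusted p = 0.861, against log2 1.41, adjusted p = 0.0064) then no longer passed, while C1QA (log2 1.16, adjusted p = 0.0474), C4BPA (log2 0.81, adjusted p = 4.82e-04) and CD74 (log2 0.41, adjusted p = 7.97e-04) did. C4BPA in MYH7-dominant spots stood at 1.53 (0.918 to 2.38), against 0.776 (0.659 to 0.908), and at 1.23 (0.84 to 1.73), against 0.887 (0.777 to 1.01), with overlap in section 2. CD74 stood at 16.3 (13.9 to 19.1), against 12.2 (11.4 to 12.9), and at 19.5 (17.2 to 22), against 10.8 (10.3 to 11.4) in MYH2/MYH4-dominant spots, and its intervals overlapped in MYH7-dominant spots.

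**Figure D4:**
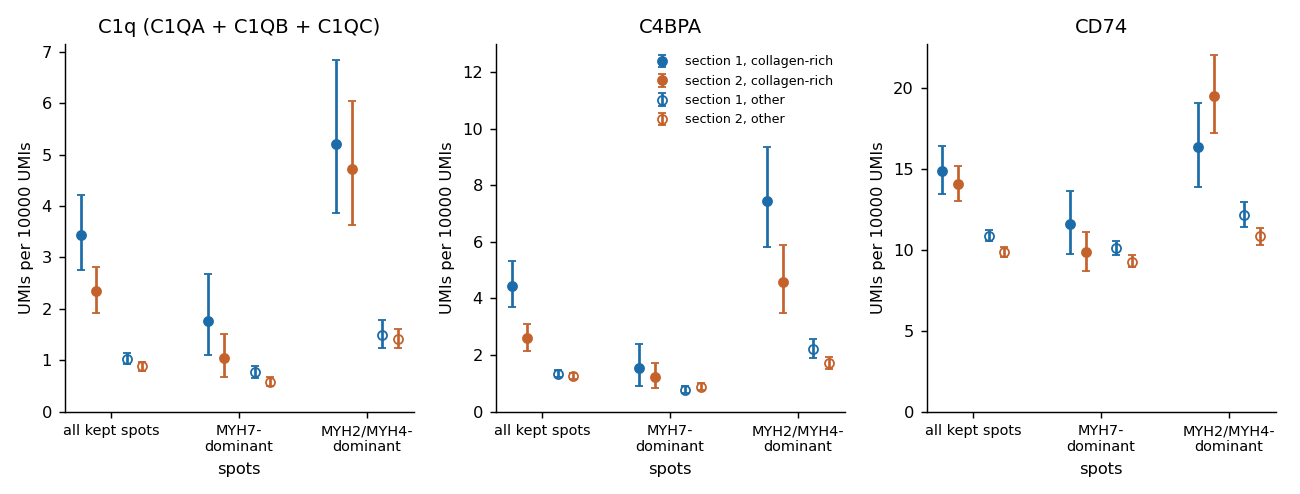
UMIs per 10000 UMIs of the members in collagen-rich and other spots, over all kept spots and within the fibre classes. Points are sections and bars 95% intervals. In MYH2/MYH4-dominant spots C1q stood at 5.2 and 4.73 where collagen was rich, against 1.48 and 1.41 elsewhere, and 2.1 in section 1 without the spot with the most C1q UMIs.

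Of the other complement genes, 3 of 7 activation genes tested and 2 of 2 regulators passed as higher in collagen-rich spots. C4A had 36 against 37 UMIs in section 1 and 36 against 41 in section 2 (8.97-fold, edgeR adjusted p = 2.21e-21), and C3 had 25 against 46 UMIs in section 1 and 36 against 64 in section 2 (5.35-fold, 1.60e-12). CFD (2.4-fold), SERPING1 (4.06-fold) and CLU, a regulator of the terminal pathway (3.33-fold), were the others. Of macrophage markers 4 of 11 passed (CSF1R 2.7-fold), of adipocyte genes 4 of 5, of mural genes 5 of 7, of fibroblast and matrix genes 19 of 19 and of endothelial genes 0 of 10. Macrophage markers stood at 7.12 against 3.14 UMIs per 10000 in section 1 and 6.31 against 2.95 in section 2, and fibroblast and matrix genes at 91.8 against 18.4 UMIs per 10000 in section 1 and 78.1 against 17.1 in section 2. The fibroblast and matrix sums include COL1A1, COL1A2 and COL3A1, which set the class, so part of that contrast was fixed in advance. The part of these cell types in the folds of the 5 genes was not tested.

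MYH7 is the myosin of slow fibres, and MYH2 and MYH4 are myosins of fast fibres. Spots with at least 5 UMIs of them were classed by the MYH7 share, as MYH7-dominant at 0.75 or more (731 and 821 spots) and MYH2/MYH4-dominant at 0.5 or less (897 and 1324). MYH7-dominant spots were deeper, with medians of 2961 against 764 and 3598 against 990 UMIs. C1q stood at 0.824 (0.707 to 0.956), against 1.89 (1.62 to 2.2) UMIs per 10000 in MYH2/MYH4-dominant spots of section 1, and at 0.621 (0.534 to 0.719), against 1.68 (1.49 to 1.88) in section 2. C4BPA stood at 0.82 (0.703 to 0.951), against 2.78 (2.45 to 3.15), and at 0.918 (0.811 to 1.04), against 1.95 (1.74 to 2.17). CD74 stood at 10.2 (9.76 to 10.6), against 12.6 (11.9 to 13.4), and at 9.32 (8.97 to 9.67), against 11.5 (11 to 12). Each was lower in MYH7-dominant spots of both sections, with intervals that did not overlap.

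All 5 genes passed as lower in MYH7-dominant spots, and 14.1% of 4227 genes did. The values were log2 -1.51 ± 0.20 for C1QB (edgeR adjusted p = 1.88e-13), log2 -1.37 ± 0.11 for C4BPA (2.68e-33), log2 -1.27 ± 0.21 for C1QA (9.22e-09), log2 -1.13 ± 0.22 for C1QC (3.00e-06) and log2 -0.30 ± 0.06 for CD74 (7.68e-06). These are relative to all UMIs of the spots. Scaled by the number of spots instead, the median of all genes moved by 1.48 on the log2 scale, and the members turned to 0.22 (C1QA), 0.35 (C1QC), 0.12 (C4BPA) and 1.20 (CD74), with C1QB at -0.03. Relative to that median they lay at -1.27 (C1QA), -1.13 (C1QC), -1.36 (C4BPA), -0.29 (CD74) and -1.51 (C1QB). With spots of interquartile depth, C1QB (log2 -1.05, adjusted p = 0.00401) and C4BPA (log2 -0.81, adjusted p = 1.68e-05) passed, and C1QA (log2 -0.61, adjusted p = 0.202), C1QC (log2 -0.91, adjusted p = 0.0598) and CD74 (log2 -0.16, adjusted p = 0.128) did not.

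At 500 UMIs, C1q was found in 4.69% (3.27 to 6.49), against 6.12% (4.39 to 8.27) of MYH2/MYH4-dominant spots in section 1, and in 2.72% (1.71 to 4.08), against 6.66% (5.27 to 8.29) in section 2. C4BPA was found in 3.86% (2.58 to 5.53), against 6.91% (5.06 to 9.16), and in 3.7% (2.51 to 5.25), against 6.93% (5.51 to 8.59). CD74 was found in 41.4% (37.8 to 45.1), against 44.4% (40.5 to 48.4), and in 38.8% (35.4 to 42.2), against 40% (37.1 to 42.9). The intervals of C1q and C4BPA overlapped in section 1 and were apart in section 2, and those of CD74 overlapped in both.

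Over bins of the MYH7 share with limits of 0.1, 0.25, 0.5, 0.75 and 0.9, from low to high, C1q stood at 1.44, 2.02, 1.87, 1.45, 1.01, 0.738 UMIs per 10000 in section 1 and at 0.961, 1.43, 1.6, 1.55, 0.649, 0.60 in section 2. C4BPA stood at 1.22, 2.57, 3.13, 2.11, 0.92, 0.772 and at 1.85, 2.25, 1.6, 2.22, 0.97, 0.879. CD74 stood at 10.5, 13.4, 12.5, 13, 10.2, 10.2 and at 9.75, 10.7, 12.1, 11.2, 9.51, 9.17. For C1q and C4BPA the bins above 0.75 were the lowest in both sections, and the highest bin lay below 0.75. The bin of the lowest share had 154 and 200 spots, and its C1q intervals were wide, 1.44 (0.768 to 2.47) and 0.961 (0.526 to 1.61). Between shares of 0.9 or more and 0.1 or less C4BPA passed (log2 -0.95, adjusted p = 0.0232 in edgeR) and CD74 did not (log2 -0.16, adjusted p = 0.15), and the C1q chains had too few UMIs for a test.

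**Figure D5:**
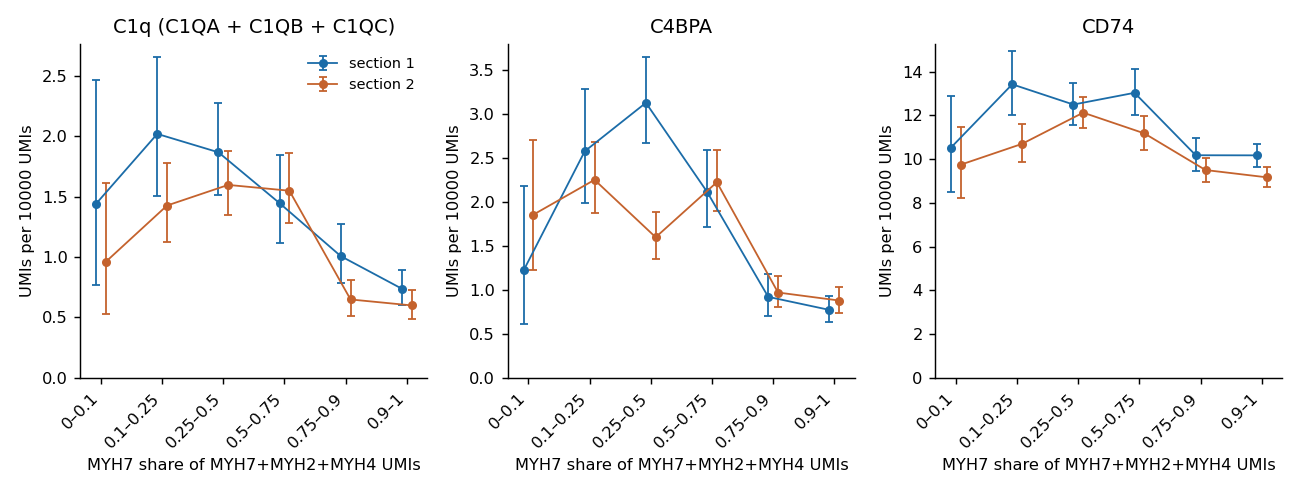
UMIs per 10000 UMIs of the members by the MYH7 share of MYH7, MYH2 and MYH4 UMIs of the spot. Points are sections and bars 95% intervals. In the bin of the highest share C1q stood at 0.738 and 0.60, and C4BPA at 0.772 and 0.879.

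Connective tissue genes moved with the classes, and the macrophage sum did so less, with little difference in section 2. SELENOP held most UMIs of the macrophage list over all kept spots. By gene, list medians were log2 -0.69 for macrophage markers and log2 -1.31 for fibroblast and matrix genes. Fibroblast and matrix genes stood at 16.5 against 37.1 UMIs per 10000 in section 1 and 15.6 against 30.8 in section 2, with 18 of 21 lower in MYH7-dominant spots, and macrophage markers at 2.9 against 4.34 UMIs per 10000 in section 1 and 3.1 against 3.43 in section 2, with 3 of 6 lower. CFD (log2 -0.91 ± 0.09), C4A (log2 -1.91 ± 0.35) and SERPING1 (log2 -1.12 ± 0.13) were lower, whereas B2M was higher (log2 0.27 ± 0.06, edgeR adjusted p = 1.38e-04). Mitochondrially encoded genes stood at 1952 against 1242 UMIs per 10000 in section 1 and 1894 against 1201 in section 2. Without matrix-rich spots all 5 genes passed, at log2 -1.23 for C1QB, -1.02 for C4BPA, -0.81 for C1QC, -0.77 for C1QA and -0.26 for CD74.

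MYH2/MYH4-dominant spots were further divided by the MYH4 share of their MYH2 and MYH4 UMIs. MYH4-poor spots had no MYH4 UMI, and MYH4-rich spots had a share above 0.214 in section 1 and 0.2 in section 2. In the spots between, C4BPA stood at 2.61 and 2.36 UMIs per 10000, and C1QA at 0.453 and 0.759. In section 2 both were higher there than in MYH4-rich spots (2.24 and 0.649). C4BPA stood at 4.04 (3.28 to 4.91), against 2.07 (1.63 to 2.59) UMIs per 10000 in MYH4-poor spots of section 1, and at 2.24 (1.82 to 2.72), against 1.31 (1.04 to 1.63) in section 2 (1.85-fold, log2 0.89 ± 0.17, edgeR adjusted p = 6.15e-05). C1QA passed as well (2.24-fold, log2 1.17 ± 0.33, 0.0219), with log2 2.19 in section 1 and 0.53 in section 2, while 1.18% of genes passed as higher. C1QB (log2 0.70 ± 0.30, 0.301), C1QC (log2 0.68 ± 0.35, 0.472) and CD74 (log2 -0.02 ± 0.09, 0.981) did not pass, and C1QC had opposite signs in the sections (1.80 and -0.17). In section 1, 16 of the 28 C1QA and 30 of the 99 C4BPA UMIs of MYH4-rich spots lay in the spot with the most C1q UMIs. Without the spots with the most C1q or C4BPA UMIs no member passed, with C4BPA at log2 0.53, adjusted p = 0.122 and C1QA at log2 0.46, adjusted p = 0.764. With DESeq2 C4BPA passed (log2 0.89, adjusted p = 0.00328) and C1QA was given no adjusted p. Fibroblast and matrix genes stood at 43.4 against 32.6 UMIs per 10000 in section 1 and 32.5 against 26.3 in section 2.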

How the data were processed

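UMI counts per gene and spot were deposited by the authors as matrices of 2 Visium sections, made per the labels with Space Ranger 1.1 on Sscrofa11.1, and are raw counts with no normalization. Per the study's methods the reference held older gene models of MYH2 and MYH4, and unreliable spots were removed by hand. The deposited matrices hold more spots than the study's own spot counts, so spots that the authors left out are among those analysed. Groups of spots were formed within sections, and spot positions were not used. Spots with over 25% mitochondrial UMIs and the 2% with the fewest UMIs were left out, leaving 53 to 7431 and 89 to 9200 UMIs per spot. Thinning to 500 UMIs drew once without replacement. Positive spots were paired with the unused negative spot nearest in total UMIs, within 10%. UMIs were summed per section and class and tested with edgeR 4.0.16 (R 4.3.3, quasi-likelihood, TMM, minimum count 10) with the section as a block, since its classes share 1 animal, and Benjamini-Hochberg adjustment over all genes tested, at 0.05. The method was tested on simulated data. DESeq2 1.42.0, other matching, filters, depths and spot sets were alternatives. The members and lists were chosen with earlier results of these data known. Named genes are the members, up to 4 genes of each list with the smallest p among those that passed, list genes given beside them as not passing, and the 10 genes with the largest rise in each positive-spot comparison that had at least 20 CPM and 1 sign in both sections. Genes that set a class were left out of its tests.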

Additional observations from a re-analysis of the deposited data

How the results depend on the processing

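For MYH7-dominant against MYH2/MYH4-dominant spots 1282 genes passed, against 635 with DESeq2, 390 at shares of 0.9 and 0.1, 625 at interquartile depth and 3989 (3961 higher and 28 lower, in place of 684 and 598) when scaled by the number of spots. That scaling turned C1QA to 0.22, C1QC to 0.35, C4BPA to 0.12 and CD74 to 1.20 on the log2 scale, because it moves the median of all genes by 1.48, and relative to that median no member changed sign. For collagen-rich spots 558 passed, against 181 with DESeq2, 4267 (4266 higher and 1 lower, in place of 350 and 208) scaled by spots, 325 with matched depth and 367 within MYH2/MYH4-dominant spots. With settings chosen after seeing the data they were 1161 (matrix-rich) and 121 (thinned). For C1q-positive spots 159 passed (85 higher and 74 lower), against 24 with DESeq2 (5 and 19), 38 with no filter (13 and 25) and 31 without collagen-rich spots. For CD74-positive spots 33 passed, against 450 with all negative spots, where C4BPA turned to -0.10, 4 with DESeq2 and 1 without collagen-rich spots. For C4BPA-positive spots 54 passed (38 higher and 16 lower), against 138 with all negative spots, 33 matched within 5%, 26 with DESeq2 (13 and 13) and 107 with no filter.

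Without the replicate block, in which the section is left out of the fit, 55 genes passed for C1q-positive spots (51 higher and 4 lower), 40 for C4BPA-positive spots (40 and 0) and 0 for CD74-positive spots, where 194 had an unadjusted p under 0.05 in edgeR, against 1279 for MYH7-dominant and 518 for collagen-rich spots. It ended the calls of C1QB and C4BPA in CD74-positive spots and no other call of a member.

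The observed over expected count of C1q with C4BPA was 8.53 and 9.01 at 300 UMIs, and in section 2 it was 3.62 at 1000 UMIs and 3.10 with no thinning. C1q with CD74 was 1.75 at 300 UMIs in section 1, C4BPA with CD74 was 1.05 at 1000 UMIs in section 1, and collagen with C4BPA was 1.07 at 300 UMIs in section 2. Of the folds of members under alternatives, 194 kept direction and side of the threshold, 24 no longer passed, 5 newly passed, 6 changed sign (4 of them under the scaling by spots) and 1 moved by more than the spread. Another was C1QC in MYH4-rich spots, at -0.0032 without the spots with the most C1q or C4BPA UMIs, a setting chosen after seeing the data, under which no member passed in that comparison. With 1 section left out there is no test, and the values are those of the other section. Collagen-rich sets of 5% or 20% of spots were not run, because the minimum of 3 UMIs already limited the class to 102 and 144 spots (4.2% and 5.0%), so that these sets would be nearly the same. Depth limits the C1q chains most, with 1 UMI in most spots that held them.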
